A study of Pyrus pyrifolia with 6 samples.

Results

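Partly methylated regions that lost CG methylation under the fruit bag, with no called change in the other cytosine contexts at the same place, were examined in the skin of the pear Pyrus pyrifolia 'Cuiguan'. A region of the authors' deposited table was taken when it lay on a chromosome, was called in CG context, had a lower mean level in bagged than in unbagged skin, had an unbagged level below 70%, and shared no base with a region called in CHG or CHH context (H is A, C or T). This gave 581 regions, 29.7% of the 1958 CG regions on chromosomes, out of 53954 regions in the table. Of the CG regions on chromosomes, 1207 (61.6%) were lower in bagged skin, and 701 of these began below 70%. From these, 120 were left out because they shared a base with a CHG region (69), a CHH region (62) or both (11).

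The assay was bisulfite sequencing of the whole genome, in which unmethylated cytosines are read as thymine, in 3 samples of unbagged and 3 samples of bagged fruit skin. All fruit came from 'Cuiguan' trees of 7 years in an orchard and was sampled at 115 days after full bloom. Unbagged fruit carried no cover. Bagged fruit was put under a white paper bag with a single layer at 20 days and a yellow-white bag with a double layer at 40 days. The skin of this cultivar turns russet in part, with brown corky patches, and the design asks how methylation of the skin differs with bagging in relation to russeting. The table gives 1 mean level per group and region, and the spread between replicates is therefore not known for any value below. The sequencing depth behind each level is unknown too, and no test across samples could be made.

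In plants, methylation of CG sites is copied onto the new strand at each DNA replication by a maintenance methyltransferase (MET1 in Arabidopsis thaliana), whereas CHG methylation depends on chromomethylase 3 tied to a histone mark, and CHH methylation has to be set anew, in part by small RNAs. Transposons usually carry all 3 kinds. Methylation in CG context alone is known above all from the transcribed bodies of genes. The name CG-only is used below for a change called in CG context alone. Whether the regions also carried unchanged CHG or CHH methylation is not known. CG marks can be lost by failed copying during cell division or by active removal through DNA glycosylases such as ROS1 of Arabidopsis thaliana. A partial level in a bulk tissue is an average over cells, chromosome copies and cytosines, so that fewer cells carrying the mark and fewer marked cytosines per cell cannot be told apart. Genes and sequences at the regions were not analysed here.

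The regions fell from an intermediate to a low level. Their median was 46.8% methylated in unbagged skin (quartiles 33.3 and 58.6, lowest 8.89, highest 69.99) and 20.0% in bagged skin (quartiles 10.7 and 30.8, lowest 1.84, highest 55.9). The median difference was -23.9 percentage points, with quartiles of -28.2 and -19.3 and a range from -54.7 to -5.80. The regions were chosen by these levels, in both groups, and by the authors' calls, so the levels are given as a description. Together the regions covered 58.5 kb and held 6679 cytosines in CG context. The bagged level was a median of 43.1% of the unbagged one, and in 357 regions (61.4%) it was less than 50% of it.

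Most regions kept some methylation under the bag. In bagged skin 134 regions (23.1%) were below 10% and 43 (7.40%) below 5%, and 48 (8.26%) still had 40% or more. The 134 regions that ended below 10% had started from a median of 24.1%, so they were mostly regions of low level in unbagged skin. A fall of at least 20 points was seen in 419 regions (72.1%), a fall of at least 30 points in 108 (18.6%), and a fall under 10 points in 8.

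**Figure D1:**
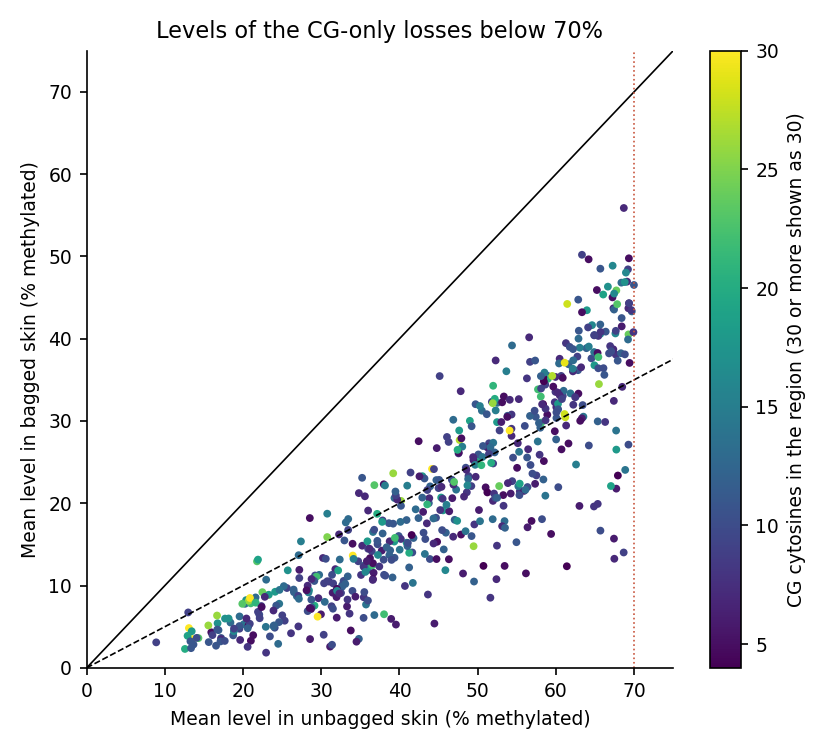
Each point is 1 of the 581 regions, with its mean level in unbagged skin on the horizontal and in bagged skin on the vertical axis (both in percent), coloured by its number of CG cytosines. The solid line marks equal levels, the dashed line 50% of the unbagged level and the dotted line the 70% limit. Points of low unbagged level lie mostly under the dashed line, and those near the limit mostly above it.

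Across this range the fall in points grew and then levelled off, while the part kept rose throughout. The 36 regions below 20% in unbagged skin had a median difference of -12.1 points and kept 25.9% of their level. From 20 to 30% (76 regions) the median difference was -17.1 points, and from 30 to 40% (113 regions) it was -22.8 points, with 32.3% and 34.7% kept. Regions from 40 to 50% (104 regions) had a median of -25 points and kept 45.3%. From 50 to 60% (120 regions) and from 60 to 70% (132 regions) the median was -27.0 points in both, and 51.3% and 58.1% of the level was kept. A region cannot fall by more points than it has. The regions were also listed because they differed between the groups, by thresholds that are not known. Both trends are therefore subject to selection, to an extent that was not tested.

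The 70% limit cuts through a continuous range. The 5 members with the highest unbagged levels, from 69.43 to 69.99%, had bagged levels of 37.1 to 46.5%. The 5 CG losses next above the limit, from 70.18 to 70.35%, had bagged levels of 33.2 to 53.1%. Differences ran from -32.4 to -23.5 points below the limit and from -37.0 to -17.1 points above it. The 414 CG-only losses that started at 70% or more went from a median of 83.9% to 60.1%. Their median difference of -21.9 points was near that of the partly methylated regions, but they kept 73.5% of their level, and 27 of them (6.52%) went below 50% of it.

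The largest falls among regions with at least 10 cytosines started near the 70% limit in most cases. Of these, the region with the largest fall lay on chromosome 13 from 2134677 to 2134727, where 10 cytosines went from 65.7% to 16.7%. The next lay on chromosome 16. There 19 cytosines between 10148110 and 10148234 fell from 67.0% to 22.1%, and 14 cytosines between 3499087 and 3499241 fell from 68.9% to 24.1%. The same chromosome held a further region of this list, from 25557152 to 25557322, with 18 cytosines at 67.7% unbagged and 26.5% bagged. The other 6 of the list of 10 were on chromosomes 3, 4, 6, 10 and 12, with differences between -42.2 and -38.4 points. One of them, on chromosome 4 from 20872369 to 20872459, started lower than the rest, with 12 cytosines going from 49.5% to 10.5%.

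With no limit on the number of cytosines, 4 regions of 4 to 9 cytosines fell further than any of these. On chromosome 5, 9 cytosines between 1746135 and 1746236 went from 68.7% to 14%, and 6 cytosines between 23597846 and 23597901 from 67.4% to 15.7%. On chromosome 15, 7 cytosines between 35359005 and 35359084 went from 67.5% to 13.3%. The fourth, on chromosome 4 between 21121602 and 21121697, had 4 cytosines at 61.4% and 12.3%. These 4 were singled out after their values were seen, and a mean over so few cytosines rests on few measurements.

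Bagged levels were very low in some regions. The conversion rate and the depth are not known, so the error of such low levels is not known either. The lowest bagged levels among regions with at least 10 cytosines were 2.30% at 1069203 to 1069351 of chromosome 2, and 2.39% and 2.69% on chromosome 7, at 3046760 to 3046825 and at 29350277 to 29350361. They started from low levels of 12.6%, 13.4% and 16.5% in unbagged skin. The region on chromosome 12 from 6954131 to 6954229 differed from these in its start, with 10 cytosines at 31.4% in unbagged and 2.80% in bagged skin, so that 8.93% of its level was kept. The fifth region of this list, on chromosome 7 from 17941366 to 17941459, went from 13.7% to 2.83%.

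In size the regions were short. The median length was 91 bp (quartiles 69 and 121, range 51 to 374) and the median number of CG cytosines was 10 (quartiles 7 and 13, range 4 to 49). The cytosines stood at a median density of 11.0 per 100 bp (quartiles 8.82 and 13.8). The table does not say whether cytosines of both strands were counted. CG-only losses from 70% or more had nearly the same medians, with 88 bp, 10 cytosines and 11.1 per 100 bp. CG-only gains had 88 bp, 11 cytosines and 12 per 100 bp, and the gains had the higher median density on 13 of the 17 chromosomes. The 120 partly methylated losses left out for their overlap were longer, with a median of 117 bp and 12 cytosines. No test was made between these kinds, since regions are not replicates of the treatment and cytosine number bears on which regions are called.

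Of the 10 regions with the most cytosines, 5 started below 30%. In the whole set, 469 of 581 regions (80.7%) started at 30% or more. The region with 49 cytosines, on chromosome 3 from 26854062 to 26854292, went from 23.2% to 8.85%. On chromosome 5 from 17475254 to 17475499, 47 cytosines went from 13.5% to 3.50%, and on chromosome 3 from 27866604 to 27866781, 44 cytosines went from 13.1% to 4.83%. A region of 329 bp on chromosome 6 from 19540317 to 19540645 held 40 cytosines and fell further, from 29.5% to 6.22%. On chromosome 10 from 19923810 to 19924070, as many cytosines went from 54.1% to 28.8%. Of the other 5, 4 held 29 to 36 cytosines and had bagged levels of 8.49 to 37.1%. The longest region, 374 bp on chromosome 5 from 16903337 to 16903710, had 28 cytosines at 61.2% and 30.5%. In the whole set the median difference was -25.8 points for the 93 regions with 4 to 6 cytosines and -20.9 points for the 55 regions with 20 or more. The median density was 14.7 cytosines per 100 bp in the class below 20% and 10.5 to 11.7 in the classes above.

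The regions were next set against called regions nearby, which the rule did not use beyond the condition that they share no base. The distance to the nearest CHH region had a median of 2953 bp (quartiles 1011 and 6812). Within 2 kb, 225 regions (38.7%, 95% exact binomial interval 34.7 to 42.8, counting error only) had a CHH region. The nearest one was higher in bagged skin for 201 of these (89.3%), against 90.3% higher among all CHH regions on chromosomes, so the direction of the CHH neighbours was that of the table. By all CHH regions within 2 kb, 192 regions had higher ones and no lower one, 17 had lower ones and no higher one, and 16 had both.

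Some losses in CG context lay right beside a gain in CHH context. A CHH region higher in bagged skin came within 200 bp of 45 regions, whose own medians were 53.3% unbagged and 23.7% bagged, and a lower one came within 200 bp of 4. Of the 49 regions with a CHH region this near (8.43%), the nearest was thus higher in 91.8%, near the 90.3% of all CHH regions on chromosomes. Of the losses from 70% or more, 45 (10.9%) had a CHH region within 200 bp, and the nearest was higher in 41 of them. The shortest distance was 3 bp, on chromosome 17. There the CG region from 23940773 to 23940828 went from 62.5% to 32.9%, while the CHH region beside it, with 38 cytosines, went from 38.4% to 54.4%. On chromosome 7, the CG region from 4227674 to 4227824 fell from 47.1% to 18%, at 11 bp from a CHH region that went from 53.6% to 69.7%. Next in distance were regions on chromosome 14 from 12059047 to 12059129 (65.4% to 37.8%) and on chromosome 1 from 15512055 to 15512171 (67.7% to 38.1%), at 13 and 14 bp from CHH regions that were higher in bagged skin. The fifth, on chromosome 9 from 4394173 to 4394248, fell together with its CHH neighbour at 15 bp: the CG level went from 17.2% to 3.49% and the CHH level from 9.59% to 3.75%.

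The 157 higher CHH regions within 1 kb of a partly methylated loss stood at a median of 18.7% without the bag and of 33.9% with it. Over all 42128 higher CHH regions on chromosomes these medians were 11.7% and 24.5%. Those near CG-only losses from 70% or more had 15.2% and 27.5%, and those near CG-only gains 11.8% and 26.5%. The differences were 14.1 points near the partly methylated losses and 11.7 points over all, as medians. The CG regions with a CHH region within 2 kb and those without one had similar median differences of -24.0 and -23.8 points, and unbagged medians of 48.6% and 45.1%.

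The share with a CHH region within 2 kb, 38.7% for the partly methylated losses, was 47.6% for those from 70% or more (197 of 414, interval 42.7 to 52.5). It was lower for the partly methylated losses on 13 of the 17 chromosomes and higher on 4. By level it did not rise evenly: it was 38.9% below 20%, 31.6% from 20 to 30%, 37.2% from 30 to 40%, 34.6% from 40 to 50%, 40.8% from 50 to 60% and 45.5% from 60 to 70%. Above the limit it was 50.4% from 70 to 80%, 49.7% from 80 to 90% and 38.9% from 90% up, and the intervals of adjacent classes overlap. All CG-only gains had 36.6% (188 of 514, interval 32.4 to 40.9), near the 38.7% of the partly methylated losses. The partly methylated losses were above the gains on 8 chromosomes and below them on 9. Split by their bagged level, the gains had 30.2% below 70% (106 of 351, interval 25.4 to 35.3) and 50.3% at 70% or more (82 of 163, interval 42.4 to 58.2). These differences were not tested.

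**Figure D2:**
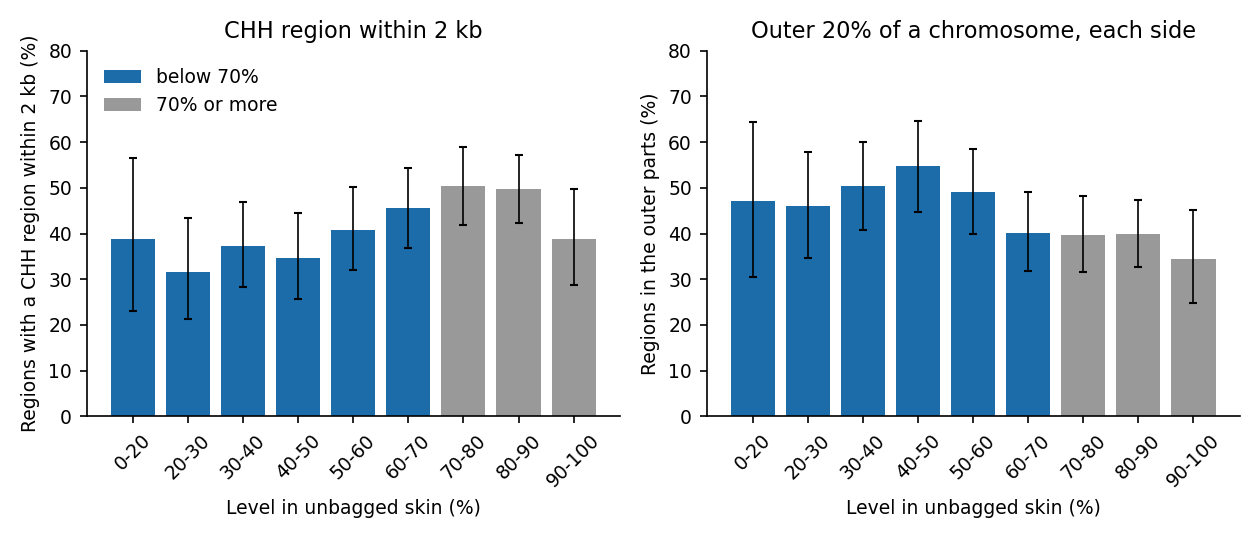
Bars give the share of CG-only losses (percent) with a CHH region within 2 kb (left) and in the outer 20% on each side of a chromosome (right), by level in unbagged skin. Blue bars are the 581 partly methylated regions, grey bars the 414 regions of 70% or more, and lines are 95% exact binomial intervals. The left shares are lowest at 20 to 30% (31.6%) and highest at 70 to 80% (50.4%), the right ones highest at 40 to 50% (54.8%) and lowest at 90 to 100% (34.4%), and neither changes evenly between.

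CG neighbours at short range were mostly lower in bagged skin. Another CG region lay within 1 kb of 27 partly methylated losses (4.65%). These made 22 distinct pairs, in 20 of which the partner was lower in bagged skin and in 2 higher, against 61.6% lower among all CG regions on chromosomes. The partner was a further partly methylated loss in 7 pairs, a loss from 70% or more in 6, a region that overlaps another context in 8 and a CG-only gain in 1. Counted from each member, 27 of 29 neighbours within 1 kb were lower (93.1%, interval 77.2 to 99.2), 5 of 7 from 1 to 2 kb, and 355 of 538 (66.0%, interval 61.8 to 70) from 2 to 100 kb. A pair of 2 members enters these counts from each side, and its partner is lower by definition. The intervals take the neighbours as independent and are therefore too narrow. No CG regions on a chromosome lay closer than 51 bp, so a stretch broken by a short gap in the calling would appear as a close pair. The part of this in the counts was not tested.

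Some close partners differed in level while they fell together, and others were alike. On chromosome 13, the region from 5973820 to 5974001 went from 20.9% to 8.49% with 36 cytosines, and 309 bp away 20 cytosines went from 88.2% to 70%. That partner was a loss from 70% or more, so it lay above the limit by definition. On chromosome 17, neighbours 105 bp apart went from 69.2% to 39.9% (719997 to 720106) and from 33.4% to 8.30% (720211 to 720294). At a place on chromosome 16, by contrast, 3 regions with starts from 8093704 to 8093946 had nearly one level, 16.3 to 18.8% in unbagged and 3.10 to 4.77% in bagged skin. Members 191 bp apart on chromosome 9 (43.1% and 49.4% unbagged) and 182 bp apart on chromosome 10 (24.2% and 18.4% unbagged) were also near each other in level. The 2 exceptions in direction were on chromosome 8, where a loss from 61.8% to 39.0% (9117948 to 9118017) had a region rising from 47.3% to 65.6% at 498 bp, and on chromosome 16, where a loss from 45.2% to 19.2% (25075535 to 25075596) had one rising from 4.95% to 20.4% at 703 bp.

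CHG neighbours within 1 kb were mostly lower as well. A CHG region lay within 1 kb of 18 partly methylated losses, and it was lower in bagged skin for 17 of them (94.4%, interval 72.7 to 99.9), against 49.7% lower among all CHG regions on chromosomes. These were 16 CHG regions in all, 15 lower and 1 higher, and 5 of the 16 shared a base with a further CG region. The interval does not allow for CHG regions that were counted from more than 1 member. From 2 to 100 kb, 233 of 466 CHG neighbours were lower and 233 higher. The closest was 89 bp from the region on chromosome 4 described above (49.5% to 10.5%), where 6 CHG cytosines went from 81.8% to 59.8%, and the next 4 in distance, at 109 to 194 bp, were lower in bagged skin too. On chromosome 15, the CG region from 34156952 to 34157005 went from 52.4% to 10.8%, and the CHG region 249 bp away from 40.7% to 4.21%. The single exception was on chromosome 16, where the CG region from 18571336 to 18571401 fell from 67.7% to 41.0% and the CHG region 515 bp away rose from 28.4% to 63.2%. At the 17 members with a lower CHG neighbour, both contexts were thus lower within 1 kb although the called regions shared no base.

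For the losses from 70% or more, 14 of 18 CG neighbours within 1 kb were lower (77.8%, interval 52.4 to 93.6), an interval that holds the 61.6% of all CG regions. Of their CHG neighbours, 17 of 20 were lower (85.0%, interval 62.1 to 96.8), against 49.7% of all CHG regions. Both intervals overlap those of the partly methylated losses, and a difference between these kinds of loss was not tested. For the gains, 4 of 27 CG neighbours (14.8%, interval 4.19 to 33.7) and 5 of 32 CHG neighbours (15.6%, interval 5.28 to 32.8) were lower. For the CHH neighbours of the partly methylated losses, the share lower in bagged skin was 11.8% within 1 kb (21 of 178, interval 7.45 to 17.5) and 10.1% from 2 to 100 kb. For the losses from 70% or more it was 4.24% within 1 kb (7 of 165, interval 1.72 to 8.55) and 9.48% from 2 to 100 kb.

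**Figure D3:**
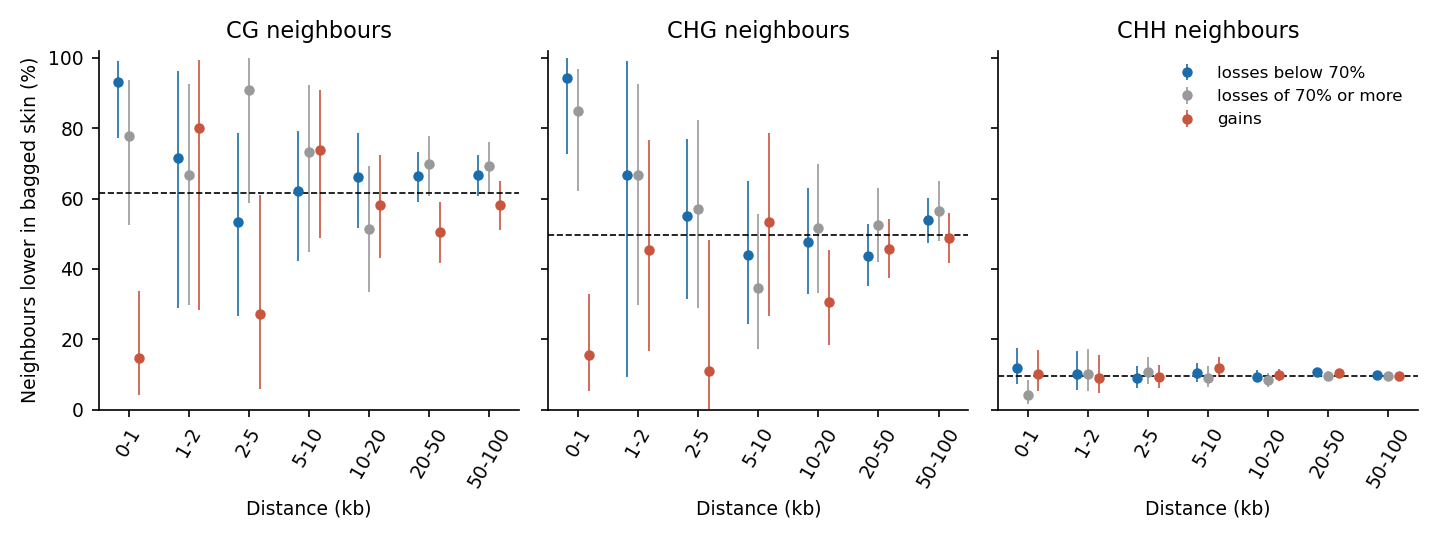
Points give the share of CG, CHG and CHH neighbours (percent) that were lower in bagged skin, by distance in kb from the partly methylated losses (blue), the losses from 70% or more (grey) and the gains (red), and lines are 95% exact binomial intervals. Dashed lines are the shares in the whole context on chromosomes, and a pair of 2 regions of one kind is counted from each side. Within 1 kb, 93.1% of CG and 94.4% of CHG neighbours of the partly methylated losses were lower, and 11.8% of their CHH neighbours. The CHH share of the losses from 70% or more lies below the dashed line there, at 4.24%.

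Beyond these pairs the regions were scattered. The nearest other CG region had a median distance of 69779 bp (quartiles 25268 and 152287), and 77 regions (13.3%) had one within 10 kb, of which 55 nearest ones were lower (71.4%, interval 60 to 81.2). With members within 1 kb of each other joined to 1 locus, 65.6% of 64 nearest ones were lower, against 61.6% of all CG regions. The other kinds were scattered alike. The median distance was 74836 bp for the losses from 70% or more and 77363 bp for the gains, and 12.8% and 12.1% of them had a CG region within 10 kb. No called region of any context lay within 10 kb of 72 of the 581 partly methylated losses, a count not made for the other kinds. The densest groups held 4 members within 100 kb and were found at 2 places. On chromosome 2, the 4 members spanned 69.8 kb from 1069203 to 1138978, with unbagged levels of 12.6, 69.4, 68.4 and 40.2% and bagged levels of 2.30, 44.3, 46.8 and 19.7%. On chromosome 15, they spanned 80.4 kb from 14243101 to 14323478, with unbagged levels of 50.3, 17.7, 47.8 and 63.3% and bagged levels of 17.8, 3.27, 33.6 and 50.2%. The last 2 of these lay only 55 bp apart and would count as 1 locus if members within 1 kb were joined. Members of one group thus covered most of the range of levels in the whole set.

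All 17 chromosomes held such regions, at 1.20 per Mb over the 486 Mb up to the last called region of each chromosome. The density went from 0.898 per Mb on chromosome 10 (29 regions) and 1.03 on chromosome 11 to 1.41 on chromosome 16 (42 regions) and 1.47 on chromosome 2 (40 regions). Chromosome 15, the longest, held the most, with 58. The median difference varied little between chromosomes, from -25.6 points on chromosome 17 to -21.9 on chromosome 1. Of all CG-only losses, the partly methylated ones were 58.4%. Of the 17 chromosomes, this share was highest on chromosome 13 (74.4%, 32 of 43, interval 58.8 to 86.5) and chromosome 14 (70.5%, 31 of 44, interval 54.8 to 83.2). It was lowest on chromosome 1 (45.1%, 23 of 51, interval 31.1 to 59.7). The intervals of chromosomes 14 and 1 hold the 58.4% of all, and that of chromosome 13 begins just above it.

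Along the chromosomes, the regions were set against their distance from the ends. The outer 20% on each side held 278 of the 581 (47.8%, interval 43.7 to 52.0), where an even spread would give 40%. By unbagged level, the share was 50.1% for the 449 regions below 60% and 40.2% from 60 to 70% (53 of 132). The next class, losses from 70 to 80%, had 39.7% (56 of 141). The outer parts held 36.2% of the higher and 39.5% of the lower CHH regions. They held 38.6% of the CG-only losses from 70% or more (160 of 414, interval 33.9 to 43.5) and 45.7% of the CG-only gains (235 of 514, interval 41.4 to 50.1). Gains with a bagged level below 70% had 47.9% there (168 of 351, interval 42.5 to 53.2), nearly the share of the partly methylated losses. Gains at 70% or more had 41.1% (67 of 163, interval 33.5 to 49.1). The share of the partly methylated losses was above that of CHH regions on 15 of the 17 chromosomes, above that of the losses from 70% or more on 13, and above that of the gains on 10. The tenth of a chromosome from 80 to 90% of its extent held the most (82, 14.1%) and that from 60 to 70% the fewest (35, 6.02%). Levels were similar in both parts, with medians of 45.8% unbagged and 19.2% bagged in the outer and of 47.6% and 20.7% in the inner parts. The place of centromeres and the density of genes were not used, and these shares were not tested.

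**Figure D4:**
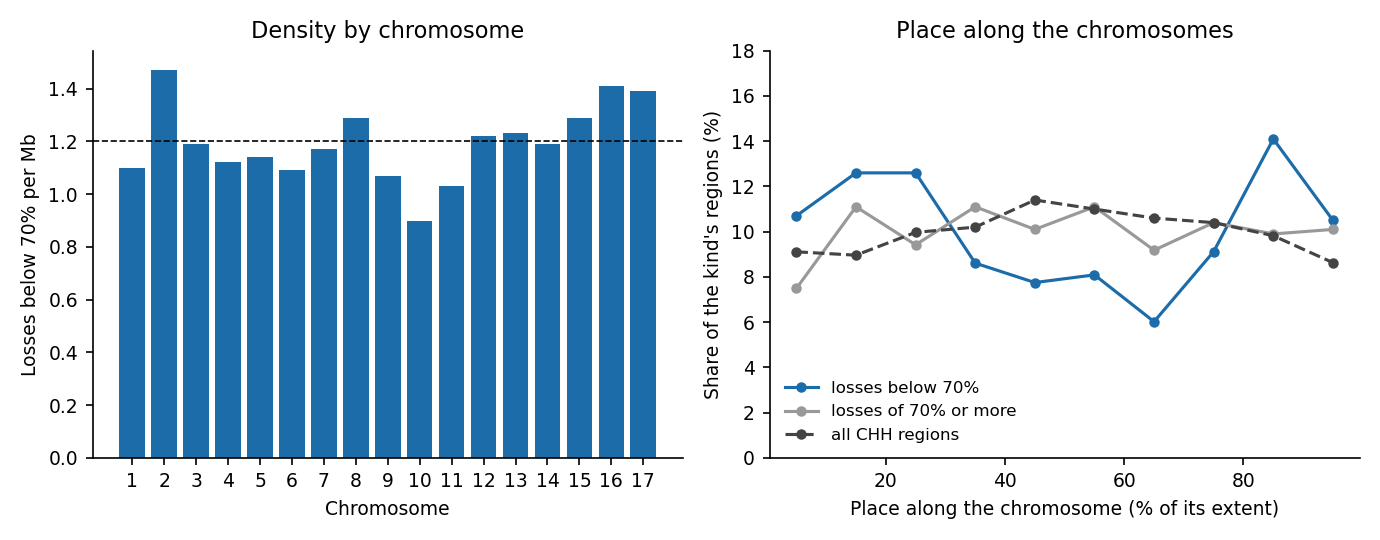
Left, partly methylated CG-only losses per Mb (bars) on each of the 17 chromosomes, with the density over all of them as a dashed line. Right, the share of each kind's regions (percent) in 10 equal parts of the chromosomes, for the partly methylated losses (blue), the losses from 70% or more (grey) and all CHH regions (dashed). The density ranges from 0.898 on chromosome 10 to 1.47 on chromosome 2, and the blue line is lowest at 60 to 70% of the extent, with 6.02%.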

How the data were processed

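Genomic DNA of fruit skin was extracted with CTAB from 3 biological replicates per group, and Accel-NGS Methyl-Seq was the library kit, per the labels' protocols. The submitters' processing notes name Bismark 0.16.3 and FastQC. Not given in the sources used here are the genome build, the caller of regions and its thresholds, the conversion rate, the depth, and whether the tails this kit adds were trimmed, which can bias calls at read ends. The authors' deposited table gives the mean methylation level as a fraction for each group and region, with replicates combined (printed here as percent), a count of cytosines per region, and a score of their caller named an area statistic, which was not used. Regions are listed because they differed between the groups, so their levels are subject to selection. Positions are the table's own, read as counted from 1.

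Regions were selected and compared with pandas 2.3.3. Distances run between facing ends, and chromosome extents end at the last called region. Shares have 95% exact (Clopper-Pearson) intervals from scipy 1.17.1, which cover counting error only. For neighbours they take the counts as independent, although a neighbour or a pair can be counted more than once. No test across samples or regions was made. Interval arithmetic was tested on simulated data against bedtools. The members, measures and comparison kinds were chosen with earlier results of these data known. Named, in full or by range, are the 10 largest falls and 5 lowest bagged levels (with at least 10 cytosines), the 10 with most cytosines, 5 on each side of the limit, the densest groups within 100 kb, and the 5 nearest to a CHH and to a CHG region. Other close pairs were picked after their values were seen. On scaffolds, 6 regions met the other conditions and were used in an alternative only.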

Additional observations from a re-analysis of the deposited data

How the results depend on the processing

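Under the alternatives, 144 of 155 values moved by no more than a preset margin, namely the exact interval of a share, the quartiles around a median or a factor of 1.5 on a number. These margins are wide, so the count says little of stability. With at least 10 cytosines, 327 regions were left (0.673 per Mb), and with a fall of at least 30 points 108 (0.222 per Mb), with a median difference of -33.9 points, which follows from the stricter limits. The share with a higher CHH region within 2 kb was 35.8%. It was 17.1% for regions with no CHG or CHH region within 1000 bp, 22.7% with a window of 1 kb and 61.8% with one of 5 kb, as the construction of these settings requires. The share with another CG region was 5.85% within 2 kb and 39.4% within 50 kb, and 88.2% of the nearest ones within 2 kb were lower, against 71.4% within 10 kb. Without each chromosome in turn, the share in the outer parts was 46.8 to 48.8% and the density 1.18 to 1.22 per Mb. Joining members within 1 kb, an alternative chosen after seeing the data, left 574 loci, and lowered the share of nearest CG regions within 10 kb that were lower from 71.4% to 65.6% (64 loci with such a region). Density and chromosome ends were not run with scaffolds included, and no share in genes or promoters was run. No paired analysis was possible because the table holds 1 combined value per group, and for the same reason no replicate could be left out. With the depth unknown, no difference of a single region can be set against its error.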
